A study of Mus musculus with 2 samples.

Results

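The genes described here encode the 4 stathmins, Stmn1, Stmn2, Stmn3 and Stmn4, and the growth cone membrane proteins Gap43, Basp1, Marcks and Marcksl1. They are 8 of the 45578 genes in the deposited table and were taken by symbol, which is the transcript name without its trailing number. The list was chosen by function and with the summed footprint counts of these genes and their ratios between the libraries in view, so those values are given as descriptions. Ribosome profiling, which counts mRNA fragments protected from nuclease by ribosomes, was performed on polysomes of whole brains from control mice at postnatal day 5. The genotype of both libraries was Smn+/-; SMN2tg/0 on an FVB background, which is heterozygous for mouse Smn and carries human SMN2 as a transgene. The 2 libraries are labelled biological replicates of that single group, so no genotype, treatment or age is compared. The number of brains behind each library is not given in the sources used here.

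Stathmins bind tubulin dimers and favour microtubule disassembly, and phosphorylation weakens that activity. Stmn1 is a cytosolic protein of dividing cells and young neurons, whereas Stmn2, Stmn3 and Stmn4 are neural proteins held at Golgi and vesicle membranes by palmitoylation of an added N-terminal stretch. Gap43, Basp1, Marcks and Marcksl1 sit at the inner face of the plasma membrane, where they bind acidic phospholipids and calmodulin, are substrates of protein kinase C, and shape the actin layer beneath the membrane of growing axons. Gap43 is anchored by palmitoylation, and Basp1, Marcks and Marcksl1 by myristoylation.

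The library of replicate 1 held 1866831 footprints and that of replicate 2 held 5261878, a ratio of 2.82. Markers of brain cell types were present, with all 5 neuronal markers, all 5 astrocyte and radial glia markers and all 5 oligodendrocyte lineage markers found in both libraries. Of the 3 liver markers, Apoa1 had 1 and 6 footprints, and Alb and Cyp2e1 had none in either library, so that levels of up to 1.61 and 0.570 CPM are allowed for replicates 1 and 2 (3 counts as the limit, counting error only). The summed level of the neuronal markers was 4036 CPM in replicate 1 and 3323 CPM in replicate 2, 1.21-fold apart. Tubb3, the neuronal marker that differed most, had 1422 and 782 CPM, and without it the sums were 1.03-fold apart. The remaining neuronal markers went in both directions. Snap25 had 482 CPM in replicate 1 and 358 in replicate 2, and Syt1 539 and 512, whereas Map2 had 1422 and 1489 and Rbfox3 172 and 181. Red cell markers summed to 1498 and 1055 CPM, and oligodendrocyte lineage markers to 784 and 961 CPM. Of the 3 skeletal muscle markers, Acta1, an actin gene with close relatives, had 140 and 264 footprints. The other muscle markers had few, with 1 and 20 for Myh3 and 3 and 4 for Ckm. The part of these shifts in the results below was not tested. CPM is a gene's count divided by the library total, on the usual counts-per-million scale.

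All 8 genes carried many footprints in the neonatal brain, from percentile 97.9 of mean CPM for Marcksl1 to 99.7 for Stmn1 among protein coding genes. Replicate 1 had 0.612% of its footprints on them (95% interval 0.601 to 0.623, Clopper-Pearson) and replicate 2 had 0.351% (0.346 to 0.356), or 0.481% ± 0.185 (SD, n = 2). The stathmins took 0.328% in replicate 1 and 0.214% in replicate 2, and the growth cone membrane proteins 0.284% and 0.136%. Stathmin footprints outnumbered those of the membrane proteins 1.16-fold in replicate 1 and 1.58-fold in replicate 2. In whole brain, fewer cells of a type and less RNA per cell cannot be told apart, and footprint counts alone do not give RNA abundance.

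**Figure D1:**
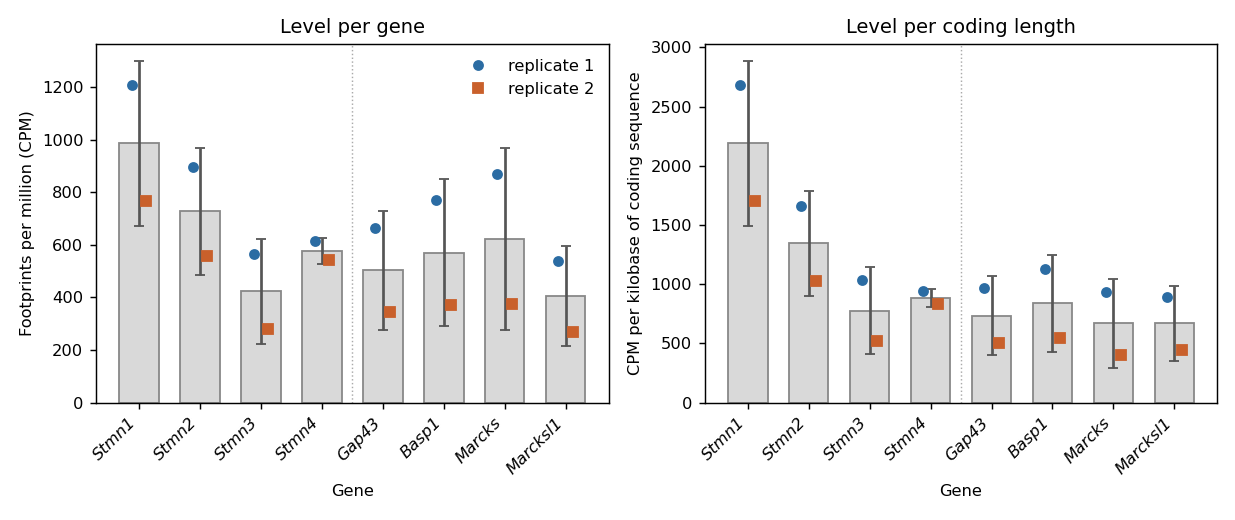
Bars give the mean of the 2 replicates and error bars 1 SD, with circles for replicate 1 and squares for replicate 2. The left axis is CPM and the right axis is CPM per kilobase of coding sequence. Replicate 1 lies above replicate 2 for each of the 8 genes, and Stmn1 has the highest level on both axes.

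Stmn1 was the most abundant of the stathmins. It had 2253 footprints in replicate 1 and 4024 in replicate 2, which are 1207 CPM (95% interval 1158 to 1258) and 765 CPM (741 to 789). Stmn2, a neuronal stathmin of axons and growth cones, had 1674 and 2928 footprints, or 897 CPM (854 to 941) and 556 CPM (536 to 577). Both genes were lower in replicate 2, and the counting intervals of the libraries did not overlap for either. The fold between the libraries was 1.58 for Stmn1 and 1.61 for Stmn2.

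Stmn3 and Stmn4, the other neural members, had fewer footprints in replicate 1 than Stmn1 and Stmn2 and parted in replicate 2. Stmn3 had 1052 footprints in replicate 1 and 1480 in replicate 2, or 564 CPM (530.0 to 599) and 281 CPM (267 to 296). Stmn4 had 1144 and 2854 footprints, or 613 CPM (578 to 649) and 542 CPM (523 to 563). Stmn4 was thus the steadiest of the 8 genes, with libraries 1.13-fold apart, against 2.00-fold for Stmn3. Of all stathmin footprints, Stmn1 held 36.2% ± 0.807 (SD, n = 2) and Stmn2 26.6% ± 0.987. The share of Stmn3 was 17.2% in replicate 1 and 13.1% in replicate 2, while that of Stmn4 was 18.7% and 25.3%.

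The membrane proteins all had about 2 times the level in replicate 1. Gap43, the protein kinase C substrate that marks growing and regenerating axons, had 1237 footprints in replicate 1 and 1804 in replicate 2, or 663 CPM (626 to 701) and 343 CPM (327 to 359). Basp1, a myristoylated phospholipid-binding protein of nerve endings, had 1435 and 1959 footprints, or 769 CPM (729 to 809) and 372 CPM (356 to 389). For Marcks, which binds actin and releases the membrane when phosphorylated, the counts were 1619 and 1981, or 867 CPM (826 to 911) and 376 CPM (360.1 to 393). Its smaller relative Marcksl1 had 1008 and 1420 footprints, or 540.0 CPM (507 to 574) and 269.9 CPM (256 to 284). The folds between libraries ran from 1.93 for Gap43 to 2.30 for Marcks, and no counting intervals overlapped. Within the group the division was nearly the same in both libraries, with 27.2% ± 0.187 for Basp1, 24.3% ± 1.30 for Gap43, 29.1% ± 2.05 for Marcks and 19.4% ± 0.565 for Marcksl1 (SD, n = 2).

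Levels of different genes were set side by side per length, as CPM per kilobase of annotated coding sequence (coding density). The coding length was that of the protein coding transcript with the highest count. These were short genes, from 450 nt in Stmn1, encoding 149 residues, to 930 nt in Marcks, encoding 309, against a median of 1392 nt over the 13317 protein coding genes tested. Coding lengths were 540 nt for Stmn2, 543 nt for Stmn3 and 651 nt for Stmn4, whose reference transcript encodes 216 residues. They were 684 nt for Gap43, 681 nt for Basp1 and 603 nt for Marcksl1.

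Stmn1 had the highest coding density of the 8, with 2682 in replicate 1 and 1699 in replicate 2, a mean of 2191 ± 695 (SD, n = 2). Among the 13317 genes it ranked 5 in replicate 1 and 7 in replicate 2. Stmn2 followed with 1661 and 1030.5, a mean of 1346 ± 446. Stmn4 came next with 941 and 833, a mean of 887 ± 76.5. The replicate range of Stmn1 lay above that of Stmn2, and that of Stmn2 above that of Stmn4.

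Below them the genes lay close together. Mean coding densities were 838 ± 412 for Basp1, 778 ± 368 for Stmn3, 735 ± 331 for Gap43, 671 ± 317 for Marcksl1 and 669 ± 373 for Marcks (SD, n = 2). From Stmn4 downwards, each of the 5 neighbouring pairs in the order had overlapping replicate ranges. Within each library, Basp1 was above Stmn3, Stmn3 above Gap43 and Gap43 above Marcksl1, by 1.03-fold to 1.12-fold, while Stmn4 and Basp1, and Marcksl1 and Marcks, changed places between the libraries. The lowest of the 8 coding densities were 895 for Marcksl1 in replicate 1 and 405 for Marcks in replicate 2. The median protein coding gene had a coding density of 22.4 in replicate 1 and 25.1 in replicate 2. All 8 genes were among the 100 highest coding densities in replicate 1 and 3 of them, Stmn1, Stmn2 and Stmn4, in replicate 2.

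The first place of Stmn1 depends on how transcripts are combined. With the highest transcript of each gene alone, the mean coding density was 608 for Stmn1 and 170 for Stmn4, below 838 for Basp1 and 796 for Stmn2. With protein coding transcripts alone, Stmn1 stayed first at 2159 and Stmn2, at 796, came after Basp1. In the main setting counts were summed over the transcripts of each gene. Over 58 pairs of transcripts of 1 gene with identical lengths, the median squared difference of the paired counts over their sum was 0.345. Independent counts would give 0.455, and a fragment counted on both transcripts would give 0. Fragments divided evenly at random between the paired transcripts would also give 0.455. The value therefore cannot tell divided fragments from independent counts.

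The genes differed more in their untranslated than in their coding lengths. The annotated 3′ untranslated region ran from 305 nt in Stmn3 to 2733 nt in Marcks, with a median of 963 nt over protein coding genes. It was 440 nt in Stmn1, 1281 nt in Stmn2, 514 nt in Stmn4, 587 nt in Gap43, 944 nt in Basp1 and 753 nt in Marcksl1. Marcks stood at percentile 84.8 of all 3′ untranslated lengths, and its coding sequence made up 23.0% of the transcript, against 50.8% in Stmn4.

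**Figure D2:**
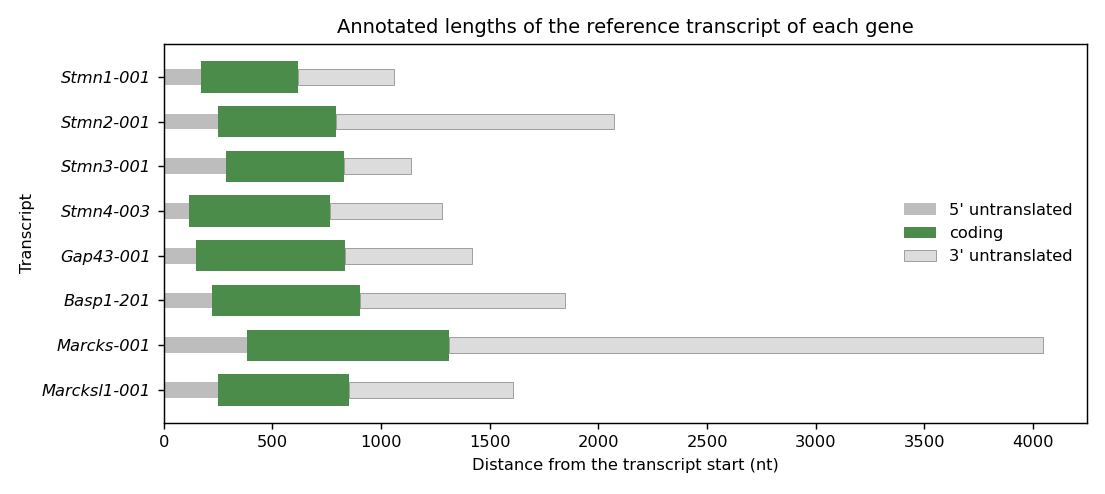
Each bar is the annotated reference transcript of 1 gene, drawn to scale in nt from the transcript start, with the coding sequence as the tall block. Coding lengths lie between 450 and 930 nt, and the 3′ untranslated region of Marcks, at 2733 nt, is the longest.

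Footprint counts were only weakly related to the 3′ untranslated length. Spearman's rho between that length and mean CPM was 0.214 over the 8 genes, which share libraries and depth, and 0.107 over the 13317 protein coding genes. Between coding length and coding density it was -0.738 over the 8 genes and -0.453 over the protein coding genes, where the length is also the divisor. The choice of divisor matters most for the genes with long 3′ untranslated regions. Counted per kilobase of whole transcript, Stmn2 had a mean of 350.5 CPM per kilobase, behind Stmn4, Stmn3 and Gap43, although in replicate 2 it stood above Stmn3 and Gap43, and the distance from Stmn1 to Marcks grew from 3.28-fold to 6.05-fold.

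The 8 genes had 24 annotated transcripts, 16 of them protein coding, and each had footprints in both libraries. Stmn3, Basp1, Marcks and Marcksl1 had 1 transcript each, so their whole count lay on a coding transcript. In the other genes the shares of transcripts were close between replicates, although the levels of Stmn1, Stmn2 and Gap43 were not. The largest SD of any transcript's share was 1.25 percentage points, for Stmn2-001.

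The footprints of Stmn1 were divided over transcripts that share a coding region. Stmn1-001 had 618 footprints in replicate 1 and 1137 in replicate 2, Stmn1-004 had 608 and 1085, and Stmn1-005 had 605 and 1034. Stmn1-001 and Stmn1-004 have the same coding length, 450 nt, and 3′ untranslated regions of 440 and 96 nt. Their counts differed by less than counting noise in replicate 1 and by about that noise in replicate 2, with a squared difference over the sum of 0.0816 and 1.22. Stmn1-003, whose annotation ends within the coding sequence, had 394 and 696 footprints. The non-coding Stmn1-002 held 1.52% ± 0.386 of the count (SD, n = 2).

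Stmn4 was spread over 9 transcripts, more than any other of these genes. The 4 coding transcripts that include a 3′ untranslated region encode 189, 176, 216 and 203 residues, for Stmn4-001 to Stmn4-004. They held 18.7% ± 0.560, 16.4% ± 0.383, 19.1% ± 0.714 and 17.1% ± 0.346 of the footprints (SD, n = 2). No single annotated transcript held most of the footprints. Fragments of exons that the isoforms share cannot be assigned to one of them, so these shares are not isoform levels.

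Of the 8 genes, Stmn2 carried the largest share of footprints on transcripts without an annotated coding sequence. These held 40.1% of its count in replicate 1 and 41.9% in replicate 2, against medians of 7.69% and 9.41% over protein coding genes. Most lay on Stmn2-002, a retained intron transcript of 3413 nt, with 452 footprints in replicate 1 and 824 in replicate 2. The coding Stmn2-001 had 1002 and 1701. The share was 19.0% and 18.2% for Stmn4 and 7.11% and 8.31% for Gap43. Retained intron transcripts can share exons with the coding transcript, and whether their footprints lie in those exons was not tested.

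**Figure D3:**
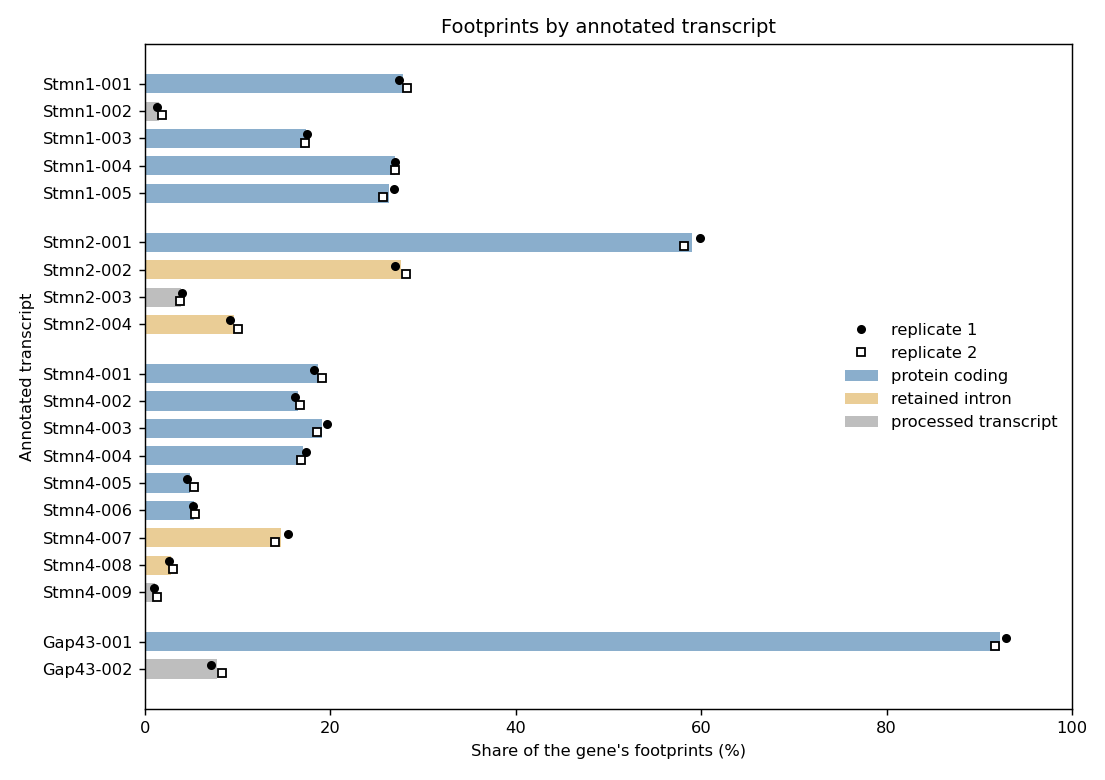
Bars give the mean share of a gene's footprints, in percent, on each annotated transcript of the 4 genes with more than 1, coloured by biotype. Circles are replicate 1 and squares replicate 2. Stmn4 is divided over 4 similar coding transcripts, and Stmn2-002, a retained intron, holds 27.6% of the Stmn2 footprints.

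Between the replicates, all 8 genes were lower in replicate 2. Library sizes were scaled by TMM (trimmed mean of M values), and each gene's counts were compared by a two-sided exact binomial test with Benjamini-Hochberg adjustment over 16427 genes, called at an adjusted p under 0.05. All 8 were called lower, where 11.5% of the genes tested were called lower and 17.4% called in either direction. The list was drawn up with these values known, so nothing is read from that count. The test compares 2 libraries and covers counting error alone.

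The log2 ratio of replicate 2 over replicate 1 was lowest for Marcks, at -1.33 (95% interval -1.43 to -1.23), and the exact binomial test gave an adjusted p-value of 4.2e-153. Among the 2402 called genes whose counts averaged 100 or more it was the second lowest. Basp1, Stmn3, Marcksl1 and Gap43 held places 10 to 13 in that order, at -1.17, -1.13, -1.13 and -1.08. The ratio was -0.81 (-0.90 to -0.73) for Stmn2 and -0.78 (-0.86 to -0.71) for Stmn1. For Stmn4 it was -0.30 (-0.40 to -0.20), and its adjusted p-value in the exact binomial test was 1.32e-07, which became 0.0777 with its highest transcript alone, at a log2 ratio of -0.31 from fewer counts. The median over the 8 genes was -1.10, against 0.01 over all genes tested. TMM itself moved every log2 ratio by -0.13. With library totals in its place, the median was -0.98 and all 8 were still called lower, where 7.47% of the genes were. With the exact test of edgeR and a common dispersion taken from these libraries, 0 of the 8 were called and 7 had an unadjusted p under 0.05, as did 719 of the 16427 genes.

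Footprint density moved with these ratios. The density was taken as footprints per nucleotide of the gene's highest transcript, averaged over the replicates. In the 10% of genes with the lowest density the median log2 ratio was 0.25, and in the 10% with the highest it was -0.34, where 47.7% of the genes were called lower. All 8 genes lay among the latter, from percentile 97.2 for Stmn4 to 99.8 for Stmn3. The 612 genes at least as dense as Stmn4 had a median log2 ratio of -0.50, and 67.0% of them were called lower. Spearman's rho between density and log2 ratio was -0.380 over 13302 protein coding genes, -0.286 over the 8 genes and -0.680 over their 24 transcripts, which share fragments and libraries.

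**Figure D4:**
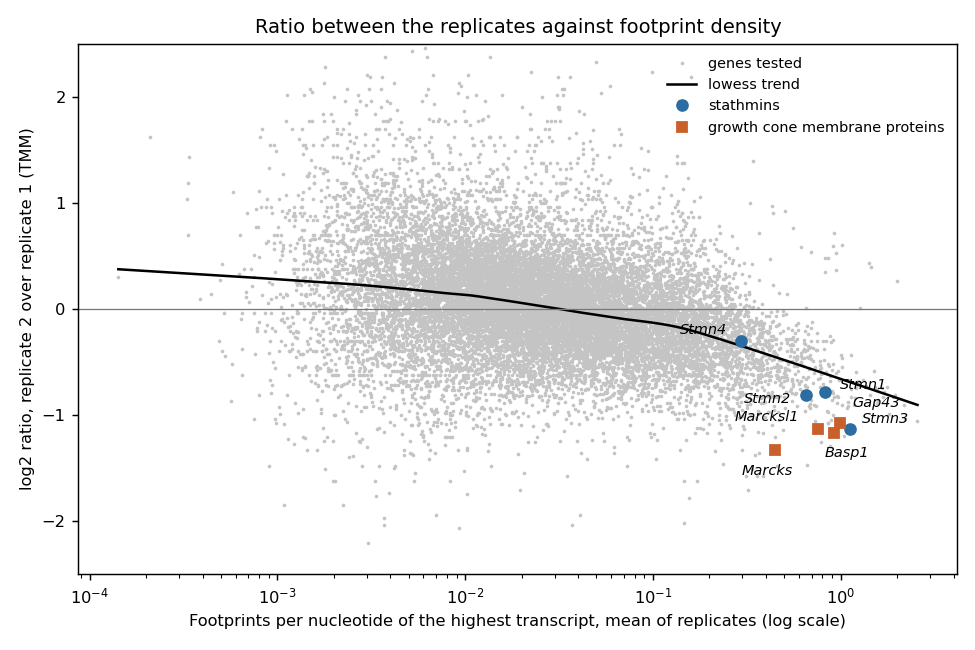
Each grey point is a gene, with its footprints per nucleotide on a log axis and its log2 ratio of replicate 2 over replicate 1, and 44 genes beyond ±2.5 are not drawn. The black line is the lowess trend over all genes. Stmn4 lies on the line, and Marcks lies farthest below it of the 8.

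When the trend with density was subtracted, the ratios shrank but most did not vanish. Marcks then stood at -0.88, Marcksl1 at -0.54, Basp1 at -0.53, Stmn3 at -0.44 and Gap43 at -0.42. Stmn2 stood at -0.27 and Stmn1 at -0.17, and Stmn4 turned to 0.044, where the exact binomial test gave an adjusted p-value of 0.671. In this setting 7 of the 8 were called lower, where 6.39% of the genes were. Nothing is read from that count either, since the ratios were known when the list was drawn up.

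Density per transcript nucleotide spreads the Marcks count over its long 3′ untranslated region. Per coding nucleotide, the coding transcripts with the highest count of 7 genes were alike, between 1.94 footprints for Marcks and 2.50 for Stmn2, averaged over the replicates, and that of Stmn4, Stmn4-003, had 0.579. Few transcripts reached such values. Of 51674 with at least 200 coding nucleotides, 11 exceeded 2 footprints per coding nucleotide in replicate 1 and 75 in replicate 2, and these included 1 and 10 transcripts of the 8 genes. The highest value of any such transcript was 2.54 in replicate 1 and 4.48 in replicate 2, although the libraries differed 2.82-fold in total. How the authors treated duplicate fragments is not given in the sources used here, and its part in these ratios was not tested.

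The trend on density per coding nucleotide was then subtracted, a setting added after the data were seen. Some of the 8 genes stayed lower and others lay near the trend. Marcks stood at -0.55, Marcksl1 at -0.34, Basp1 at -0.32 and Gap43 at -0.28, and Stmn3 stood with them at -0.30. These 5 were called lower by the exact binomial test, where 5.61% of 13314 genes were. The list was drawn up with the ratios known, so nothing is read from these calls. The test took the fitted trend as fixed and covered counting error alone. Stmn1, at -0.01, Stmn2, at 0.037, and Stmn4, at 0.13, were not called, with adjusted p-values of 0.977, 0.677 and 0.0587 in the exact binomial test. Density here was that of the coding transcript with the highest count, while the ratio was that of the whole gene. The counts of Stmn1, Stmn2 and Stmn4 are divided over 5, 4 and 9 transcripts. Gap43 has 2 transcripts, and Stmn3, Basp1, Marcks and Marcksl1 have 1 each. The part of this division in the values above was not tested. The difference between the stathmins and the membrane proteins was not tested either.

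A list of 32 regulators and partners of these proteins was described beside them. It held kinases, phosphatases and the calmodulins that act on them, N-myristoyltransferases, RNA-binding proteins and other growth cone genes. Of these, 31 were tested, and Igf2bp1 had 2 and 6 footprints. By the exact binomial test 14 were called lower in replicate 2 and 6 higher, where 11.5% of all genes were called lower and 5.95% higher. The median log2 ratio of the list was -0.19. Its median coding density was 213 in replicate 1 and 219 in replicate 2, against 22.4 and 25.1 for protein coding genes. In the 10% of genes with the highest footprint density, 47.7% were called lower. The list was chosen with earlier results known, so nothing is read from these counts.

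Calm3 and Calm2, which encode calmodulin, a calcium sensor that binds Gap43, Basp1 and Marcks, were among the highest coding densities of the list. Calm3 had a coding density of 2249 in replicate 1 and 1376 in replicate 2, and Calm2 had 1758 and 1364. These values lay between those of Stmn1 and Stmn2 in both replicates. Both genes encode the same protein, and fragments that match more than 1 gene make their separate counts uncertain. Among the lowest coding densities were those of the protein kinase C genes Prkca, with 44.8 and 48.3, and Prkcd, with 15.5 and 23.0. Of the 31 genes, 25 had a mean coding density below that of Marcks, the lowest of the 8.

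The Jun kinase genes, which phosphorylate stathmins, were singled out after their values were seen, so these are given without a test. Mapk8 had 268 footprints in replicate 1 and 1092 in replicate 2, Mapk10 had 270 and 1066, and Mapk9 had 235 and 1059. Their log2 ratios were 0.41, 0.36 and 0.55. Their coding densities, from 99.0 to 124 in replicate 1, were far below those of the stathmins, so their place on the density trend differs too.

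The gene nearest to each of the 8 in coding density over the 2 replicates was found among 13294 protein coding genes by Euclidean distance on the log2 scale. Apoe, a lipid carrier of astrocytes, was nearest to Stmn1 at a distance of 0.19, and Cst3, a secreted protease inhibitor, to Stmn2 at 0.07. Hspa8, a constitutive heat shock chaperone, was nearest to Stmn4 at 0.03. The respiratory chain gene Cox8a was nearest to both Stmn3 and Gap43 at 0.07, and Cox6a1 to Basp1 at 0.07. Mt3, a brain metallothionein, was nearest to Marcks at 0.11 and to Marcksl1 at 0.09. With 2 libraries, such nearness shows a similar level and a similar ratio between the replicates.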

How the data were processed

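The authors deposited 1 table of raw counts of ribosome-protected fragments per transcript, with 1 column per replicate and the annotated lengths. Per the labels' protocols, RNase I was applied to pooled polysomal fractions and fragments of 25 to 35 nt were sequenced. Trimmomatic 0.36, Bowtie2 2.2.6, SAMtools and the build GRCm38.p4 are named in the submitters' processing notes. The annotation release and the handling of duplicate, multiply matching and antisense fragments are not given in the sources used here.

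Counts were summed per gene. All 8 genes passed the minimum mean count of 10. Replicates were compared by a two-sided exact binomial test (scipy 1.17.1) with the expected ratio taken from library sizes scaled by TMM (edgeR 4.0.16), with Benjamini-Hochberg adjustment, because a single group gives no contrast for a quasi-likelihood test. Intervals are Clopper-Pearson 95% intervals. They cover counting error only and take fragments as independent. PCR copies are not independent molecules, so the intervals are too narrow where such copies were counted. The test was tried on simulated counts with known fold changes and counting noise alone. That trial does not bear on other variation between libraries. Trends were fitted by lowess (statsmodels 0.14.6). DESeq2 1.42.0 gave alternative size factors.

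The genes and the lists were chosen with earlier results of these data known. Named genes were the 8, the 3 highest and 3 lowest coding densities of the regulator list, pseudogenes named after a member and the nearest gene to each member. The Jun kinase genes, Igf2bp1 and the markers were named outside this rule. Of the genes this rule names, 2 are not reported here. All 8 symbols are in a RefSeq table of GRCm38.p6, used for names alone. Because the builds differ, no coordinates are given. RNA abundance was not analysed here, so translational efficiency is not given.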

Additional observations from a re-analysis of the deposited data

Results flagged for a closer look

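Footprints on a pseudogene named after Marcksl1 lie outside the counts given above. Marcksl1-ps4, a processed pseudogene of 291 nt, had 58 footprints in replicate 1 and 76 in replicate 2, or 31.1 CPM (95% interval 23.6 to 40.2) and 14.4 CPM (11.4 to 18.1). A count of 0 would allow up to 1.61 CPM and 0.570 CPM. Its count was 5.75% of that of Marcksl1 in replicate 1 and 5.35% in replicate 2. Its log2 ratio between the replicates was -1.23, beside -1.13 for Marcksl1. Whether these fragments come from Marcksl1 was not tested.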

How the results depend on the processing

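The 8 calls between the replicates numbered 8 with library totals, DESeq2 size factors, no minimum count, a minimum mean count of 100 and protein coding transcripts alone. They numbered 7, without Stmn4, with the highest transcript alone, where its log2 ratio was -0.31 against -0.30. They numbered 7, also without Stmn4, with the density trend removed, where its log2 ratio was 0.044. With the trend on density per coding nucleotide removed they numbered 5, and the ratios of Stmn2 and Stmn4 turned to 0.037 and 0.13. Under edgeR's exact test they numbered 0, with 11 genes called in all. That test takes its dispersion from the libraries it compares, which lowers the number by construction. Of all genes, 11.5% were called lower in the main setting, 7.47% with library totals and 0% under edgeR's exact test. With the density trend removed the share was 6.39%, and with the trend per coding nucleotide removed 5.61%. It was not taken in the other settings. The list was chosen with these values known, so nothing is read from the number of its calls. The median coding density of the 8 genes was 768 CPM per kilobase and 347 per kilobase of transcript, a longer divisor. The other length and counting choices moved it by less than the spread between replicates. Leaving out each replicate in turn gave 532 to 1003 for that median and 0.351 to 0.612% for the summed share of footprints. No paired analysis was possible because the replicates form 1 group.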
